A study of Mus musculus with 5 samples.

Results

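The genes of oxidative phosphorylation were examined in olfactory sensory neurons that transcribe the odorant receptor gene Olfr151, with and without exposure to an agonist of that receptor. Members were chosen by symbol: the Nduf, Sdh, Uqcr, Cox and Atp5 subunit families of the nuclear genome, and the mt-Nd, mt-Co, mt-Atp and mt-Cytb genes of the mitochondrial genome, with symbols containing -ps left out. This gave 100 of the 55411 gene rows, 87 of them nuclear and 13 mitochondrially encoded. The symbol rule does not take every subunit: Cox4i1, Ndufab1 and Cyc1 fall outside it, while Atp5s, which it takes, encodes a coupling factor that is not a subunit of the enzyme. Symbol Atp5o stands on 2 rows, of which 1 was at 0 in all libraries.

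The mice were homozygous for a targeted reporter allele (Olfr151 GFP/GFP), in which an IRES-tau-GFP cassette follows the receptor sequence, so controls and exposed animals carried the same modified Olfr151 gene. They were males of 7 weeks, backcrossed to C57BL/6J. Exposed animals received 5% acetophenone in DMSO on a cotton swab for 5 h, and controls received DMSO alone for the same time. Live GFP-positive cells were sorted by flow cytometry from pools of 4 mice, and the labels give the cells per library once as 200 and once as 400. The paper states 200 for each Olfr151 pool, and 400 for each pool of its other reporter line. Control pools 1, 2 and 3 and exposed pools 1 and 3 were analysed, and a pool is the unit of replication throughout. Each library held between 42780403 and 49527380 assigned reads, counted without molecular identifiers. Mature olfactory neuron genes were summed over 9 markers in CPM (counts scaled to library size, here the whole library). The sum was 59274 to 63115 CPM in the controls and 50166 to 50667 in the exposed pools. Omp, Cnga2, Cnga4 and Rtp1 were below all controls in both exposed pools, while Stoml3, Ano2, Adcy3, Gng13 and Gnal overlapped. Summed over 4 markers, immature neuron genes stood at 573 to 690 CPM in the controls and 742 to 1004 in the exposed pools. Gap43, Gng8 and Dpysl3 were above all controls in both exposed pools, while Stmn2 overlapped. The part of either list in the values below was not tested. In such bulk samples, fewer cells of a type and less RNA per cell cannot be told apart.

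Oxidative phosphorylation couples the oxidation of NADH and succinate to ATP synthesis in the inner mitochondrial membrane. Complexes I, III and IV pump protons while they pass electrons on to oxygen, complex II feeds electrons in from succinate, and complex V uses the proton gradient to make ATP. Apart from complex II, each complex is assembled from nuclear and mitochondrially encoded subunits. Mature olfactory neurons carry mitochondria in the dendritic knob and soma, and transduction in their cilia also draws on glycolysis.

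The mitochondrial genes need their sequences beside their counts, because 5 of the 13 had no more than 1 read in any library. Listed at 0 in all 5 libraries were mt-Atp6 and mt-Atp8 of complex V, mt-Co3 of complex IV and mt-Nd4l of complex I. A single read was assigned to mt-Co2 of complex IV, in exposed pool 1. The remaining low gene, mt-Nd3 of complex I, had 73, 38 and 44 counts in the controls and 69 and 49 in the exposed pools. Reads of 50 bases that matched more than 1 place were not counted, so every 50-base window of each gene was looked up in the transcripts of all other genes. All 635 windows of mt-Co2 also occurred in another gene, as did 99.5% of those of mt-Atp6, 99.9% of mt-Co3, 98.8% of mt-Nd4l and 98.0% of mt-Nd3. Nearly all of these windows lie in copies side by side on chromosome 1 (GRCm38), the annotated pseudogenes Gm28439, Gm10222, Gm28438, Gm28437, Gm10925, Gm28661 and Gm29216. A pseudogene on chromosome 2, Gm13341, also holds 35.3% of the windows of mt-Co2, another, Gm13340, 27.5% of those of mt-Co1, and 6 windows of mt-Atp6 occur in a further pseudogene. The chromosome 1 copies were themselves nearly empty, with at most 10 counts in any library for each but Gm29216, which had 27 to 54.

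The starts of a pair of genes show how close the copies are, the first 30 bases of each gene being printed 5′ to 3′ from the GRCm38 transcripts. In the pair of mt-Nd3 (chrMT:9459-9488, plus strand) and Gm28438 (chr1:24613090-24613119, minus strand), the capital marks the only difference in 345 aligned bases, T3C, counted from the first base of mt-Nd3. In the pair of mt-Co2 (chrMT:7013-7042, plus strand) and Gm28661 (chr1:24615536-24615565, minus strand), no base differed over the 681 bases of the copy.
mt-Nd3: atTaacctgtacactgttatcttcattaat
Gm28438: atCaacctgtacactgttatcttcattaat
mt-Co2: atggcctacccattccaacttggtctacaa
Gm28661: atggcctacccattccaacttggtctacaa
Only 6 windows of mt-Nd3 were its own, against 908 of mt-Nd1. The copies of mt-Atp6 and mt-Co3 also had no difference from their genes, over 678 and 783 bases. An exception was mt-Atp8, which was at 0 although none of its 155 windows occurred in another annotated gene. Between the chromosome 1 copies of mt-Atp6 and mt-Co2 lie 233 bases with no annotated gene, against a length of 204 bases for mt-Atp8, and the sequence there was not examined here. For the 5 genes with over 95% of their windows shared, the counts give no level of the transcript, and for mt-Atp8 the reason for its 0 was not tested.

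**Figure D1:**
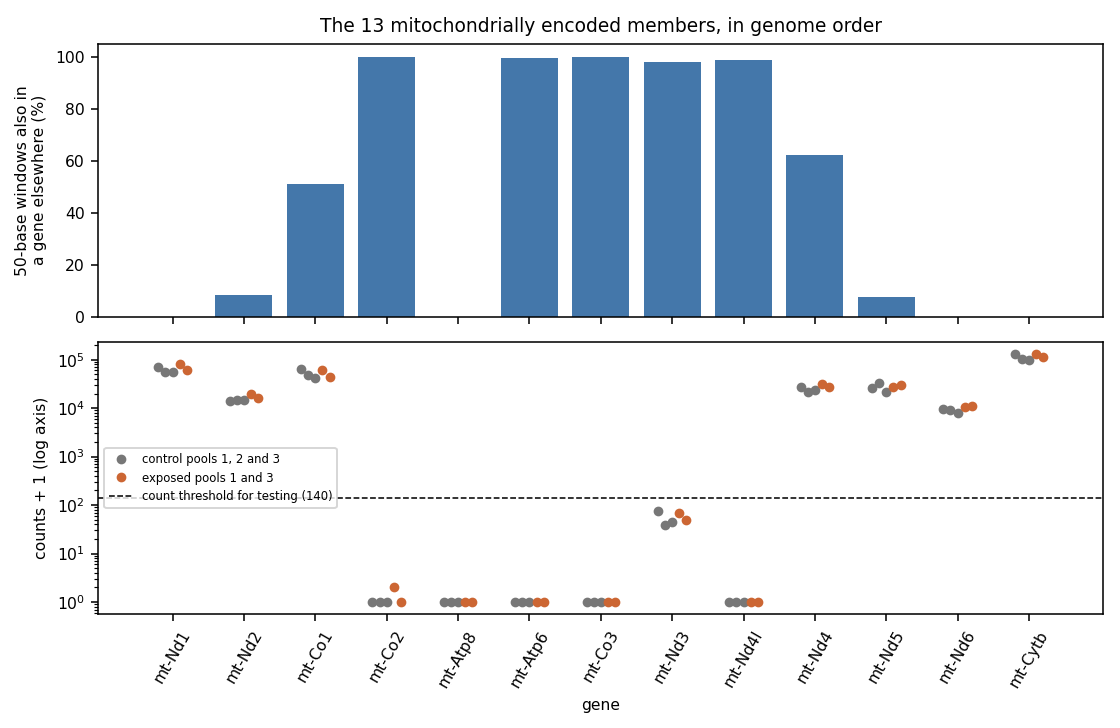
The 13 mitochondrially encoded members in genome order. Upper bars give the percent of 50-base windows that also occur in a gene elsewhere, and lower points give counts plus 1 on a log axis for the 3 control pools (grey) and 2 exposed pools (orange); the 5 genes over 95% shared and mt-Atp8 are the 6 below the dashed testing threshold of 140 counts.

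The other 7 mitochondrial genes were among the most abundant transcripts. Levels are compared between genes in TPM, which divides counts by exon length before scaling to the library. That length takes in all annotated exons of a gene, so TPM can be too low where many or long forms are annotated. Rankings of genes in TPM depend partly on this annotation. The control mean was highest for mt-Cytb, the cytochrome b of complex III, at 7161 TPM ± 1052 (SD, n = 3). Next came mt-Nd1, a membrane subunit of complex I, at 4687 TPM ± 676, and mt-Co1, the catalytic subunit of cytochrome c oxidase, at 2482 TPM ± 502. The 4 others, mt-Nd4, mt-Nd6, mt-Nd5 and mt-Nd2, lay between 1307 and 1032 TPM in that order, and neighbours differed by less than the larger of their spreads, which reached 208 TPM. These levels carry the same limit as the empty genes, since 62.2% of the windows of mt-Nd4 and 51.1% of those of mt-Co1 occur elsewhere. Divided by unique windows only, mt-Cytb had 101 ± 15.2 counts per window in the controls, mt-Co1 70.7 ± 14.6, mt-Nd1 66.6 ± 9.74 and mt-Nd4 48.4 ± 5.72. On that scale mt-Co1 and mt-Nd1 did not differ beyond their spread, and mt-Nd4 stood above mt-Nd6 at 18.8 ± 1.40. Reads were counted without strand, so those of mt-Nd6, the one member on the opposite strand, cannot be told from antisense RNA of the main strand.

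Nuclear members were also highly expressed in these neurons. Of the 87, 72 had at least 140 counts in every library of a group and were tested, as were 7 of the 13 mitochondrial genes. The median control level was 374 TPM over the tested nuclear members and 1307 over the mitochondrial ones, against 25.1 over all 10054 genes tested. In percentiles of those genes the medians were 96.2 and 99.2. Since a high level is what lets a gene pass the count threshold, these medians do not describe the members below it.

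**Figure D2:**
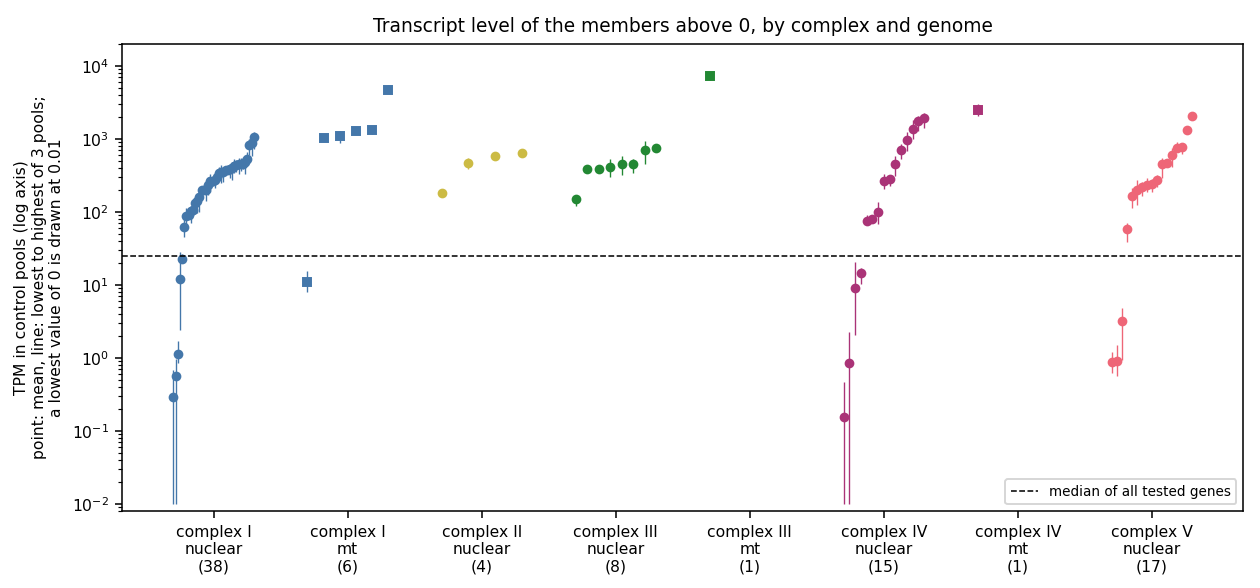
Level of each member above 0 in the control pools, by complex and genome (number of members in brackets). Points are means of 3 pools in TPM on a log axis and lines run from the lowest to the highest pool; most members lie above the dashed median of all tested genes, 25.1 TPM, and the members far below it were mostly not tested.

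By complex, the highest nuclear levels were found in the ATP synthase and in cytochrome c oxidase. Atp5b, the catalytic beta subunit of complex V, had 2058 TPM ± 15.5 in the controls, and Atp5a1, the alpha subunit beside it in the F1 head, had 1315 ± 61.7. In complex IV, Cox6a1 stood at 1921 ± 447 TPM and Cox8a at 1782 ± 439, both small subunits of the enzyme. The highest of complex I were the accessory subunits Ndufa1 at 1048 ± 283 TPM and Ndufa2 at 890 ± 279. Complex III was led by Uqcrfs1, the Rieske iron-sulfur protein, at 746 ± 51.9 TPM and by the small Uqcr10 at 710 ± 240. In complex II the anchor Sdhd stood at 646 ± 69.9 TPM and the iron-sulfur subunit Sdhb at 579 ± 70.2. Within complexes I, II, III and IV, the difference between the top pair was smaller than their spread over the pools, whereas Atp5b and Atp5a1 were far apart. The lowest tested members were Cox7c at 14.4 ± 3.56 TPM in complex IV, Ndufb2 at 23.0 ± 3.08 in complex I, Atp5s at 57.8 ± 17.1 in complex V, Uqcrb at 150 ± 25.7 in complex III and Sdhc at 183 ± 7.60 in complex II. Some of these low values are touched by counting, as 22.1% of the windows of Cox7c and 25.4% of those of Uqcrb occur in annotated pseudogenes elsewhere. These windows were pooled over all annotated transcripts of a gene. How much of the spliced mRNA could be counted was not examined, so both levels may be too low. The rank of Ndufb2 depends on its exon length, since Ndufb4 had fewer counts, with a control mean of 1608 against 1745.

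Isoform choice was one-sided wherever the family has a tissue-restricted form. Cox6a2, Cox7b2, Cox8c and Ndufa4l2 were at 0 in all 5 libraries, where a count of 0 allows up to 3 counts, while Cox6a1, Cox7b, Cox8a and Ndufa4 each had at least 5203 counts in every library. Cox6b2, a testis form, was seen in control pool 2 alone with 7 counts, against 9555 counts of Cox6b1 in the same library. Cox8b, a muscle form, had 10, 102 and 21 counts in the controls and 29 and 9 in the exposed pools, at most 0.938% of the Cox8 counts of a library. The exception was Cox7a1, known from heart and skeletal muscle, which took 7.24 to 10.4% of the Cox7a TPM in every library. Cox7a2, the general form, took 79.7 to 87.0%, and Cox7a2l, which helps to join complexes III and IV, took 5.74 to 9.90%. The c ring of complex V is the same protein from 3 genes, and Atp5g3 made 99.2 to 99.8% of its TPM. That share is uncertain on the side of the minor genes, because 36.7% of the windows of Atp5g2 and 11.1% of those of Atp5g1 occur elsewhere. These windows were pooled over all annotated transcripts of a gene. The pseudogene Gm10175 alone holds 596 windows of Atp5g2, and Gm10039 holds 335 of Atp5g1. How much of their spliced mRNA could be counted was not examined, so the share of Atp5g3 may be too high.

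In all, 15 nuclear members stayed below the count threshold. Of these, 5 were at 0 in every library, the 4 isoforms above and the second row of Atp5o, and 5 had at most 10 counts, namely Cox6b2, Cox6c2, Ndufa11b, Ndufb4c and Ndufs6b. The other 5 were Cox8b, the c ring genes Atp5g1 (62 to 321 counts) and Atp5g2 (13 to 41), the membrane subunit Atp5l (54 to 168) and the complex I subunit Ndufs5 (28 to 328). Of the windows of Atp5l, pooled over all its transcripts, 8.7% occur in other genes, 260 of them in the processed pseudogene Gm10221. How much of its spliced mRNA could be counted was not examined. For Ndufs5, the 196 windows that occur in the processed pseudogene BC002163 on chromosome 16 are 21.7% of the total. That total was pooled in the same way, and the spliced mRNA of Ndufs5 was not examined either. Its counts were 64, 28 and 328 in the controls and 52 and 117 in the exposed pools, so control pool 3 stood far above the other pools. Over all nuclear members, 44 shared at least 1 window with another gene and 16 shared more than 10%.

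Nuclear subunit genes are known targets of NRF1, of ETS factors such as GABP and of YY1, and their promoters were searched for the letters of these motifs. RefSeq promoters of 300 bases (GRCm38.p6) were matched for 66 of 86 nuclear symbols, with 71 windows in all. Searched on both strands, GCATGCGC (NRF1) was found in 14.1% of them, against 5.94% of the promoters of other tested genes and 2.71% of all 32851 promoters. AAGATGGC (YY1) was found in 12.7%, 4.99% and 2.75%, and CCGGAAG (ETS) in 22.5%, 19.5% and 8.86%. The member side was not restricted to tested genes. It included untested members such as Atp5g2 and Atp5l, which both hold the NRF1 motif, so the sets are not fully alike. The NRF1 motif was held by a member of each complex, and for each complex the promoter of the most abundant holder is shown, as 30 bases read on the strand of the gene with the motif in capitals. They lie at chr2:36049328-36049357 (Ndufa8, complex I), chr4:140961206-140961235 (Sdhb, complex II), chr10:80406807-80406836 (Uqcr11, complex III), chr5:115349100-115349129 (Cox6a1, complex IV) and chr5:108434429-108434458 (Atp5k, complex V). Sdhb is on the plus strand and the others are on the minus strand.
Ndufa8: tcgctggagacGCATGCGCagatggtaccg
Sdhb: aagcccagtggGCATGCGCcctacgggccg
Uqcr11: atcgccttcacGCATGCGCtatacgtctgc
Cox6a1: aggaacggggcGCATGCGCgctctcgctcc
Atp5k: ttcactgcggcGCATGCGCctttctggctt
A match of letters is a description of the promoter, and no binding was measured here.

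Exposure to acetophenone was compared with DMSO by a quasi-likelihood test in edgeR over all 10054 genes, with calls at a Benjamini-Hochberg adjusted p under 0.1 and a log2 fold change beyond 0.5. No nuclear member was called higher or lower, where 3.42% of all tested genes were called higher and 1.85% lower. No mitochondrial member was called either. At an unadjusted p under 0.05 stood 0 nuclear and 2 mitochondrial members, while 19.1% of all genes did, and a Wald test in DESeq2 also called 0 members where it called 7.21% of genes higher and 7.65% lower. The median log2 fold change was 0.11 over the nuclear members, 49 of which were above 0 and 23 below. Over the mitochondrial members it was 0.33, with 7 of 7 above 0, and over all genes -0.03. Both exposed pools lay above all controls for 9 nuclear and 3 mitochondrial members and below them for 1 and 0, the background being 20.3% above and 19.6% below.

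The precision of the members bounds what could have been missed. Of the 72 nuclear members, 60 had a 95% interval of the log2 fold change that lay within 1 of 0, that is short of a 2-fold change either way, and so had 7 of 7 mitochondrial members. Over all tested genes this held for 36.4%. A change of 0.5 on the log2 scale was outside the interval on both sides for only 7 nuclear members and for 0 mitochondrial ones, so changes of that size were not detectable for most.

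**Figure D3:**
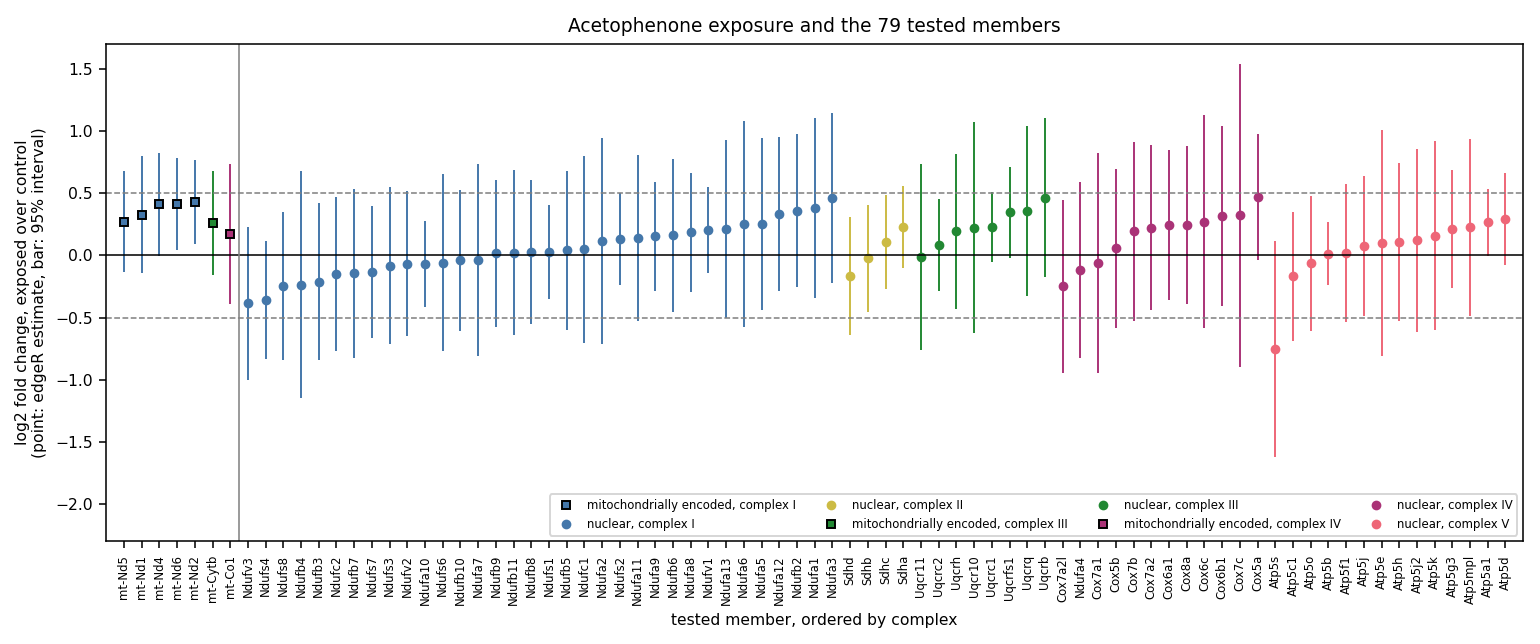
Log2 fold change of the 79 tested members, exposed over control, ordered by genome and complex. Points are edgeR estimates, bars 95% intervals and dashed lines the fold threshold of 0.5; the 7 mitochondrial genes at the left lie above 0, none of them beyond 0.5, and Atp5s is the only member beyond the threshold.

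Among the mitochondrial genes, the largest estimate belonged to mt-Nd2, a membrane subunit of complex I. Its CPM were 327, 294 and 323 in the controls and 460 and 388 in the exposed pools, which lay above all controls. The log2 fold change was 0.43 (SE 0.14), with an adjusted p of 0.175 in edgeR. mt-Nd6 had 219, 183 and 177 CPM in the controls and 250 and 265 in the exposed pools, and mt-Nd4 had 636, 445 and 517 against 743 and 672. For these the groups did not overlap either, with log2 fold changes of 0.42 (SE 0.16) and 0.41 (SE 0.17) and adjusted p of 0.218 and 0.263 in edgeR. In the other 4 the groups overlapped, as control pool 1 or 2 reached the level of an exposed pool. mt-Nd1 had 1641, 1143 and 1198 CPM in the controls and 1884 and 1447 in the exposed pools (log2 fold change 0.33, SE 0.20). mt-Cytb had 2995, 2158 and 2115 CPM against 3068 and 2734 (0.26, SE 0.18). mt-Nd5 had 605, 660 and 472 CPM against 658 and 739 (0.27, SE 0.17), and mt-Co1 had 1476, 995 and 937 against 1476 and 1083 (0.17, SE 0.24). These genes are transcribed together as long precursors from the 2 strands of one circular genome, so they are not 7 independent observations. The direction did not depend on the scaling for most of them: scaled to the ERCC spike-ins, RNA standards added to each library, 6 of 7 were above 0 with a median of 0.15, while the median of all genes moved to -0.23. With offsets for exon length in the fit, mt-Nd4 was called higher at a log2 fold change of 0.52 (adjusted p 0.0413 in edgeR), the 1 call of a member under any alternative.

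Complex I, the NADH dehydrogenase, had 34 nuclear members tested, with a median log2 fold change of 0.03. Its 3 tested subunits of the NADH-binding core, Ndufs1, Ndufv1 and Ndufv2, lay between -0.07 and 0.20. Largest on the negative side were Ndufv3, Ndufs4 and Ndufs8. Ndufv3, an accessory subunit of the NADH module, had 418, 230 and 347 CPM in the controls and 277 and 231 in the exposed pools, and the groups overlapped. Its log2 fold change was -0.39 (SE 0.26) with an adjusted p of 0.465 in edgeR. Ndufs4, an accessory subunit needed for stable assembly of that module, had 192, 138 and 147 CPM in the controls and 132 and 116 in the exposed pools, the only nuclear member whose exposed pools were both below all controls (log2 fold change -0.36, SE 0.20, adjusted p 0.381). Ndufs8, an iron-sulfur subunit of the core, stood at -0.25 (SE 0.25). Largest on the positive side were Ndufa3 at 0.46 (SE 0.29), Ndufa1 at 0.38 (SE 0.31) and Ndufb2 at 0.36 (SE 0.26), all accessory membrane-arm subunits. Ndufa3 had 92.5, 53.8 and 97.9 CPM in the controls against 123 and 100 in the exposed pools, just beyond the control range.

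Complex II, the succinate dehydrogenase, had a median log2 fold change of 0.04 over its 4 members. Sdha, the flavoprotein, had 500, 620 and 551 CPM in the controls and 638 and 667 in the exposed pools, without overlap (0.23, SE 0.14, adjusted p 0.420 in edgeR). Sdhb, Sdhc and Sdhd stood at -0.03, 0.11 and -0.17, with overlapping groups. All 4 intervals lay within a 2-fold change.

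Complex III, which passes electrons from ubiquinol to cytochrome c, had a median of 0.23 over 8 members, 7 of them above 0. Uqcrb had 45.2, 29.3 and 42.1 CPM in the controls and 54.9 and 52.3 in the exposed pools, for a log2 fold change of 0.46 (SE 0.27). Uqcrfs1 had 342, 265 and 292 CPM against 382 and 380 (0.34, SE 0.15), and the core protein Uqcrc1 had 464, 472 and 481 against 555 and 551 (0.23, SE 0.12). In these 3 genes the groups did not overlap, and their adjusted p were 0.400, 0.283 and 0.343 in edgeR.

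Complex IV had a median of 0.23 over 12 tested nuclear members. Cox5a, a nuclear subunit on the matrix side, had the highest nuclear estimate at 0.47 (SE 0.21), with 209, 132 and 180 CPM in the controls, 249 and 232 in the exposed pools and an adjusted p of 0.291 in edgeR. Cox7a2l stood at -0.25 (SE 0.29) with 41.4, 27.4 and 30.1 CPM against 28.1 and 27.4. The abundant Cox6a1 and Cox8a both stood at 0.24, with overlapping groups.

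Complex V had a median of 0.10 over 14 tested nuclear members. Atp5b was the most tightly bounded of the named members, with 2717, 2446 and 2532 CPM in the controls and 2644 and 2535 in the exposed pools, a log2 fold change of 0.01 (SE 0.11) and an interval from -0.24 to 0.27. Atp5a1 had 1224, 1188 and 1220 CPM against 1540 and 1369 (0.26, SE 0.11), and Atp5d, the delta subunit of the central stalk, 286, 246 and 276 against 365 and 295 (0.29, SE 0.16), both without overlap. Their adjusted p were 0.269 and 0.361 in edgeR. Atp5s, the coupling factor named above, had the lowest estimate of all members at -0.75 (SE 0.37), but exposed pool 3, at 25.1 CPM, lay within the controls at 24.4, 37.1 and 41.3, and the adjusted p was 0.322. Exposed pool 1 stood lowest at 15.6.

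For nuclear members, the control pools differed more than the groups did, and most members differed together. Control pool 2 was the lowest of the 5 libraries for 63 of 72 nuclear members, against 18.0% of all tested genes, and control pool 1 the highest for 45, against 24.6%. With the 3 controls' mean as reference, the median nuclear member stood at 0.33 on the log2 scale in control pool 1, -0.46 in control pool 2, 0.01 in control pool 3, 0.19 in exposed pool 1 and -0.02 in exposed pool 3. The median of all genes stayed within 0.04 of 0 in each pool. The mitochondrial members followed another order, with medians of 0.26, -0.17 and -0.15 in the controls and 0.38 and 0.30 in the exposed pools. Of the library, nuclear members took 1.94, 1.35 and 1.69% of gene counts in the controls and 1.84 and 1.62% in the exposed pools, while mitochondrial members took 0.787, 0.582 and 0.584% and then 0.835 and 0.712%. Their ratio, mitochondrial to nuclear counts, was 0.394 ± 0.043 (SD, n = 3) in the controls and 0.446 ± 0.011 (SD, n = 2) in the exposed pools.

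**Figure D4:**
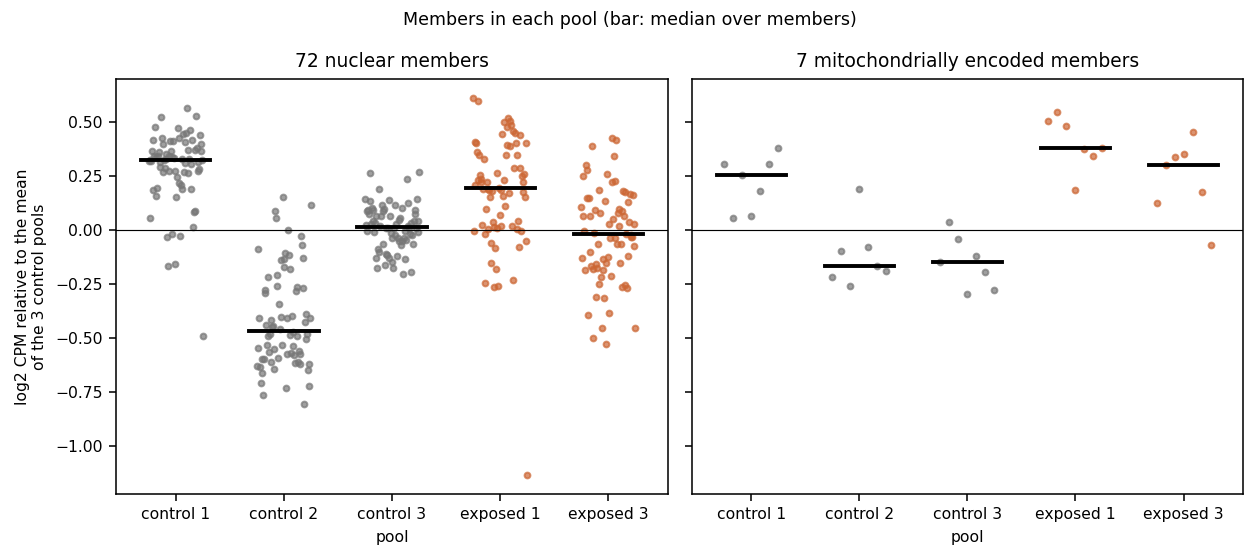
Level of each tested member in each pool, as log2 CPM over the average of the 3 controls, for 72 nuclear (left) and 7 mitochondrially encoded members (right). Each point is a gene and each bar the median over genes; the nuclear median is -0.46 in control pool 2 and 0.33 in control pool 1, and both exposed medians lie between them.

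In control pool 2 the shortfall followed transcript length. Set against the mean of controls 1 and 3, the 54 members with transcripts under 1000 bases had a median log2 ratio of -0.72, the 16 of 1000 to 2000 bases -0.25 and the 2 longer ones -0.18. Other genes of the same length classes had medians of -0.21, -0.09 and 0.13, so short members stood further down than short genes in general. Over the 72 members, which share these libraries, Spearman's rho between this ratio and length was 0.67, and over 9495 other genes it was 0.30. Atp5e, the epsilon subunit of the F1 stalk, had the widest control spread of the tested nuclear members at a coefficient of variation of 43.6%, with 151, 60.05 and 103 CPM. Atp5a1, with a longer transcript, had the smallest at 1.64%. This ranking holds in CPM, while in TPM Atp5b varied less than Atp5a1. ERCC spike-ins made up 0.631, 0.249 and 0.332% of the counts in the controls and 0.542 and 0.306% in the exposed pools, the same order of pools as the nuclear medians. Other measures set these controls apart as well. Microvillar cell markers summed to 223 CPM in control pool 2 and 15.4 to 48.5 in the other pools. Most of this was Coch, at 210 CPM in control pool 2 and 15.3 to 45.5 in the others. Cftr and Ascl3 were also highest in control pool 2, at 5.13 and 5.15 CPM, but Trpm5 was highest in control pool 3 at 27.4. Red blood cell markers summed to 343 CPM in control pool 1, 107 in control pool 2 and 6.24 to 15.1 in the other pools. Mitochondrial rRNA made up 33.9% of the mitochondrial counts in control pool 1, 17.9% in control pool 2 and 22.2 to 23.2% in the others. The part of spike-in share, these markers and rRNA in the order of the pools was not tested.

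**Figure D5:**
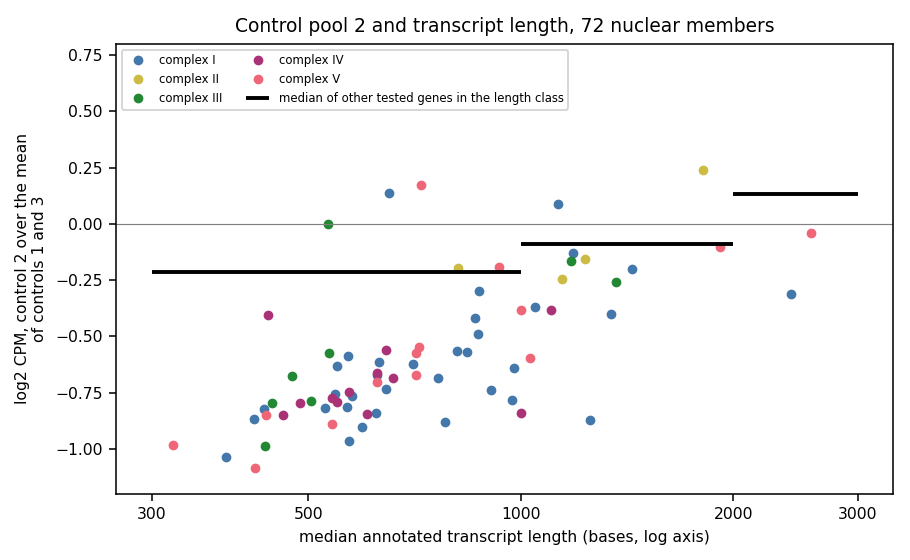
Control pool 2 against the mean of control pools 1 and 3 for 72 nuclear members, as a log2 CPM ratio (vertical) by median annotated transcript length on a log axis (horizontal), coloured by complex. Black lines are medians of the other tested genes under 1000, from 1000 to 2000 and over 2000 bases; the 54 members under 1000 bases have a median of -0.72 and the other genes -0.21.

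The sign of the nuclear median changed with the pools and the scaling. Without control pool 2 it was -0.09, with 29 of 73 tested members above 0, and without exposed pool 1 it was -0.04, with 33 of 73. ERCC scaling gave -0.04, but it moved the median of all genes to -0.23. The nuclear median stood 0.19 above that of all genes with ERCC scaling and 0.13 above it in the main fit. A block for pool number gave -0.08. With offsets for exon length it was 0.20, with 59 of 72 above 0, 12 at an unadjusted p under 0.05 in edgeR and 0 called. These offsets used the exon length of TPM, which differs from the transcript length by which control pool 2 was described. Without control pool 1 the nuclear median was 0.27, with 64 of 72 above 0. The mitochondrial median stayed above 0 when each pool was left out in turn, between 0.28 and 0.47, with 6 of 7 members above 0 without exposed pool 1 and 7 of 7 in the other cases. No nuclear member was called in any of these fits, and the only mitochondrial call, of mt-Nd4, came with the offsets for exon length.

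Other genes of the pathway were counted from lists, beside 3.42% of all tested genes called higher and 1.85% lower. None was called among 6 tested subunits outside the symbol rule, 14 assembly factors of complex I, 9 of complexes II and III, 16 of complex IV and 3 of complex V. The same held for 9 carriers, 9 genes of mitochondrial transcription and RNA, 9 regulators of the nuclear genes and the 2 mitochondrial rRNAs. In the citrate cycle, 2 of 13 tested genes were called higher and 0 lower. Idh3a, a subunit of the NAD-dependent isocitrate dehydrogenase, had 224, 236 and 205 CPM in the controls and 337 and 395 in the exposed pools, a log2 fold change of 0.72 (SE 0.15) with an adjusted p of 0.0562 in edgeR. Dld, the dihydrolipoamide dehydrogenase shared by the 2-oxoacid complexes, had 162, 145 and 150 CPM against 259 and 214, a log2 fold change of 0.63 (SE 0.16) with an adjusted p of 0.0960. Both were clear of the control range in both exposed pools. Other subunits of the enzyme of Idh3a did not rise with it. Idh3b stood at 0.03 (SE 0.14) and Idh3g at -0.39 (SE 0.19), with both exposed pools of Idh3g below all controls. Of the 13 citrate cycle genes, 5 had both exposed pools above all controls and 2 below, the background being 20.3% and 19.6%. Of genes that were not called, Ecsit, an assembly factor of complex I, stood at 0.91 (SE 0.24, adjusted p 0.118 in edgeR) and Slc25a5, an ADP/ATP carrier, at -0.33 (SE 0.14, adjusted p 0.276). Larger estimates that were not called stood in other lists in both directions. Among them were Suclg2 at 1.26 (SE 0.48), Atpaf1 at 1.22 (SE 0.55), Twnk at -1.07 (SE 0.62) and Ttc19 at -1.03 (SE 0.55).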

How the data were processed

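Per the labels, polyadenylated RNA of sorted cells was amplified with 12 PCR cycles and sequenced as single reads of 50 bases. The authors aligned reads to GRCm38 with STAR 2.7.0a. The deposited counts are reads per gene over exons from featureCounts 1.6.3, without strand and without multi-mapping reads or reads on overlapping genes. Counts are raw, 1 table per library. Groups and pool numbers came from the titles. The members and lists were chosen with earlier results of these data known.

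Symbols came from GENCODE M21 for 55144 of 55411 rows. Genes with at least 140 counts (the trough between low and expressed genes in the log2 count distribution) in every library of a group were tested in edgeR 4.0.16 (R 4.3.3; TMM, robust glmQLFit, glmQLFTest) over all 5 libraries. CPM are TMM-scaled except for marker sums, and TPM use the deposited exon lengths. Named members were those called, the 5 largest estimates in each direction, all mitochondrial genes, the 2 highest and the lowest of each complex, isoform groups, untested members and the extremes of control spread, and others named were singled out after their values were seen. In simulated counts of 10054 genes for this comparison, 20% of genes changed 2-fold and 66% changed 4-fold were called. Of the unchanged genes, 16 were called. The changed genes were drawn from all tested genes, so these rates are not specific to the members. With 3 pools against 2, p-values measure the spread between pools only. DESeq2 1.42.0 and other scalings, filters and omissions were alternatives.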

Additional observations from a re-analysis of the deposited data

Results flagged for a closer look

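Ndufb1-ps was left out by the symbol rule and carried a signal outside the comparisons above. The row (chr12:101968090-101977068, GRCm38) had 7832, 3976 and 6707 counts in the controls and 8380 and 6657 in the exposed pools, whereas the other 7 rows left out for -ps had at most 15. Its log2 fold change was 0.39 (SE 0.33) with an adjusted p of 0.570 in edgeR. Control pool 2 was again the lowest library.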

How the results depend on the processing

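No nuclear member was called under any alternative, and the mitochondrial count stayed at 0 in all but 1. With offsets for exon length, 1 mitochondrial member, mt-Nd4, was called higher (log2 fold change 0.52, adjusted p 0.0413 in edgeR), where it stood at 0.41 before. Its estimates ranged from 0.30 to 0.57 when a pool was left out. The nuclear median went below 0 with ERCC scaling (-0.04), with the replicate block (-0.08), without control pool 2 (-0.09) and without exposed pool 1 (-0.04). With ERCC scaling the median of all genes was -0.23, so the nuclear median was still above it. The nuclear median rose to 0.20 with exon length offsets and 0.27 without control pool 1. With the offsets, 59 of 72 nuclear members were above 0, 12 stood at an unadjusted p under 0.05 and the lowest adjusted p was 0.0966, with 0 called. The mitochondrial median stayed above 0, from 0.15 with ERCC scaling to 0.47 without control pool 1. Over all genes, 530 were called in the main test, 143 with ERCC scaling, 1494 by the DESeq2 Wald test, 236 with a filter of 10 counts, 280 at an adjusted p under 0.05 and 112 without exposed pool 1, 192 without exposed pool 3 and 224 without control pool 2. Deviations of same-numbered pools had correlations of 0.05 and -0.08. With 2 exposed pools, their deviations mirror each other, so these values cannot decide whether pools were paired. The pool numbers were not taken as pairs in the main test. With pool number as a replicate block, 11 genes and 0 members were called and the mitochondrial median was 0.30. By the DESeq2 Wald test the lowest adjusted p of a mitochondrial member was 0.0546, with a log2 fold change under the threshold of 0.5. Only 2 exposed pools were compared, and the counts give no level for the 5 mitochondrial genes with over 95% of their windows shared, while mt-Atp8 stood at 0 for a reason that was not tested.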
